A study of Mus musculus with 12 samples.

Results

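The 10 genes described here encode the core machinery of inflammasome signalling and pyroptosis, a lytic and inflammatory form of cell death: the sensors Aim2 and Nlrp3, the adaptor Pycard (ASC), the proteases Casp1 and Casp4, the pore-forming gasdermins Gsdmd and Gsdme, the membrane-rupture protein Ninj1, and the cytokines Il1b and Il18. They were chosen by name for their roles, and all 10 were found among the 26639 features of the white adipose tissue (WAT) table and the 22851 features of the cultured adipocyte table. In the canonical pathway a sensor that detects cytosolic DNA or cellular damage assembles ASC into a platform on which caspase-1 is activated. The active protease matures the precursors of IL-1β and IL-18 and cuts gasdermin D, whose released fragment forms pores in the plasma membrane, and NINJ1 then ruptures the membrane. In adipose tissue these genes are best known from macrophages, where several of them, Nlrp3 and Il1b above all, are also induced at the level of transcription. Protein cleavage and pore formation are not visible in RNA counts.

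The mice carried wild-type (WT) Xap5 or a knockout of Xap5 specific to mature adipocytes (Adiponectin-cKO). Xap5 is the gene Fam50a. WAT was taken at postnatal day 42 from 3 WT and 3 cKO samples, and pre-adipocytes from subcutaneous WAT of newborn WT or cKO pups were cultured and induced with insulin, dexamethasone and IBMX, and harvested at day 8 as 3 WT and 3 KO samples. The labels give neither strain nor sex, nor whether animals were pooled. Because adiponectin is switched on as adipocytes mature, other cells of the tissue or dish are not the target of the deletion. Nothing states that replicates came from separate animals or cultures, so p-values measure the spread between libraries, which may be technical.

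Library totals were 28844370 to 30704234 counts in WT WAT, 33132906 to 33997204 in cKO WAT, 11601138 to 12401278 in WT culture and 10863158 to 21773610 in KO culture. Levels are CPM, read counts divided by library size and scaled by TMM, which corrects for differences in library composition, and a gene passed the test where its Benjamini-Hochberg adjusted p from the quasi-likelihood test of edgeR was under 0.05. Fam50a itself lay at 32.5 to 36.5 CPM in WT and 16.8 to 28.9 CPM in cKO libraries of WAT (difference on the log2 scale -0.60, SE 0.20, adjusted p = 0.0395, but 0.089 and adjusted p = 0.736 with library size as the sole scaling), and at 45.2 to 57.9 against 41.1 to 46.2 CPM in culture (-0.26, adjusted p = 0.134), so a reduction was not established in the cultures and depends on the scaling in WAT. Whole-gene counts include reads from outside any deleted exon. The WAT libraries shifted broadly, with 4595 genes higher and 3947 lower of 16293 tested. Scaling by library size alone gave 8838 higher and 1427 lower and shifted the median log2 fold change over the table by 0.68. One cKO library, replicate 3, held epithelial keratins, and its summed level of 7 epithelial markers was 643 CPM against 4.72 to 33.2 in the other 5 WAT libraries. Skeletal muscle markers varied widely within both groups. Their summed level was 32.8, 198 and 1439 CPM in the WT and 1135, 237 and 45.1 CPM in the cKO libraries of WAT.

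Stretches of 250 bases before the annotated start are shown for 4 members, because these carry either a match to a motif of a factor prominent in myeloid or inflammatory gene control or, for Ninj1, the most GC-rich start of the group. The sequences are from RefSeq on GRCm38.p6, written 5′ to 3′ on the strand of the gene, and capitals mark motif matches.
Aim2, chr1:173420354-173420603, plus strand, before a start inside the annotated span of the gene: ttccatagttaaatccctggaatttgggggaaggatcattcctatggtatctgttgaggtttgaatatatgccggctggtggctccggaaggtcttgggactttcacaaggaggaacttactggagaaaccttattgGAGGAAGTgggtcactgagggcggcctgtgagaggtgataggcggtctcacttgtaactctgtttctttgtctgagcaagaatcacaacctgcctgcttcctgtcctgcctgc
Pycard, chr7:127993868-127994117, minus strand: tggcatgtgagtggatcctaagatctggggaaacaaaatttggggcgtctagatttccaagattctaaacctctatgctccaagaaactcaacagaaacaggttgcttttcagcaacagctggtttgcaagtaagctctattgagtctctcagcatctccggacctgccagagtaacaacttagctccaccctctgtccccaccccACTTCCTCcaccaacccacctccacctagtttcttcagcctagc
Casp4, chr9:5308599-5308848, plus strand: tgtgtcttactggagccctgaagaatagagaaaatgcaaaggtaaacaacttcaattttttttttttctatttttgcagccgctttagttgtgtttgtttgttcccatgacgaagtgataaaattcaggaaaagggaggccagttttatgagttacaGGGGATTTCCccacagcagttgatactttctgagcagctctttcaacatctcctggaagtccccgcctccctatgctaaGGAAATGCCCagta
Ninj1, chr13:49187279-49187528, plus strand: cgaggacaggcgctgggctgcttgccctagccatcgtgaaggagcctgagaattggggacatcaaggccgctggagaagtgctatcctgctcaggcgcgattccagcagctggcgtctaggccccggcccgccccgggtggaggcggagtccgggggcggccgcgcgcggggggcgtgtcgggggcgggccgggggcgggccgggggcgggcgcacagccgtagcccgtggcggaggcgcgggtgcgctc
Of the 10 members 9 had such a sequence, with 11 starts in all, and Gsdmd had none. Both strands were searched for each motif. The letters GAGGAAGT, like the site of the myeloid factor PU.1, lie 113 bases before the Aim2 start and, on the opposite strand, 44 bases before the Pycard start, and 2.44% of all 32851 RefSeq starts hold them. The κB-like motif, GGG followed by any 2 bases and TTTCC, occurs in both orientations before Casp4, 93 and 14 bases from the start, and in 1.41% of all starts. No member start held the interferon-response-like motif of GAAA, any 2 bases and GAAA (2.98% of all starts) or the AP-1-like letters TGANTCA (6.75%). TATAAA, the TATA box, lies 31 bases before the Il1b start used here and, on the opposite strand, 175 bases before Il18, and in 12.4% of all starts. This Il1b start, like the start used for Gsdme, lies inside the annotated span of its gene. The Ninj1 stretch is 76.0% G or C and that of Gsdme 64.0%, against a median of 52.4% over all starts, while those of Casp1, Aim2 and Pycard lie at 49.2%, 49.6% and 48.8%. In the RefSeq annotation of GRCm38, Aim2 spans 1:173349547-173466040 and Nlrp3 11:59541569-59566955. Pycard lies at 7:127991373-127993867, Gsdmd at 15:75862144-75867408 and Gsdme at 6:50207401-50263857. Il1b lies at 2:129364569-129371164, Il18 at 9:50554700-50581841 and Ninj1 at 13:49187529-49196251.

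In WAT of cKO mice the DNA sensor, the adaptor, both inflammatory caspases and gasdermin D were more abundant, while Nlrp3, Gsdme, Ninj1 and the cytokines were higher in the mean without passing the test. Aim2, Casp1, Pycard, Gsdmd and Casp4 rose, which is 5 of 10 members, against 28.2% of all genes tested that rose in WAT. All 10 means were higher in cKO. The cKO libraries lay wholly above the WT libraries for 8 members and wholly below for 0, against 35.1% and 29.3% of all genes tested. The median log2 fold change was 1.34 over the members and 0.12 over all genes.

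**Figure D1:**
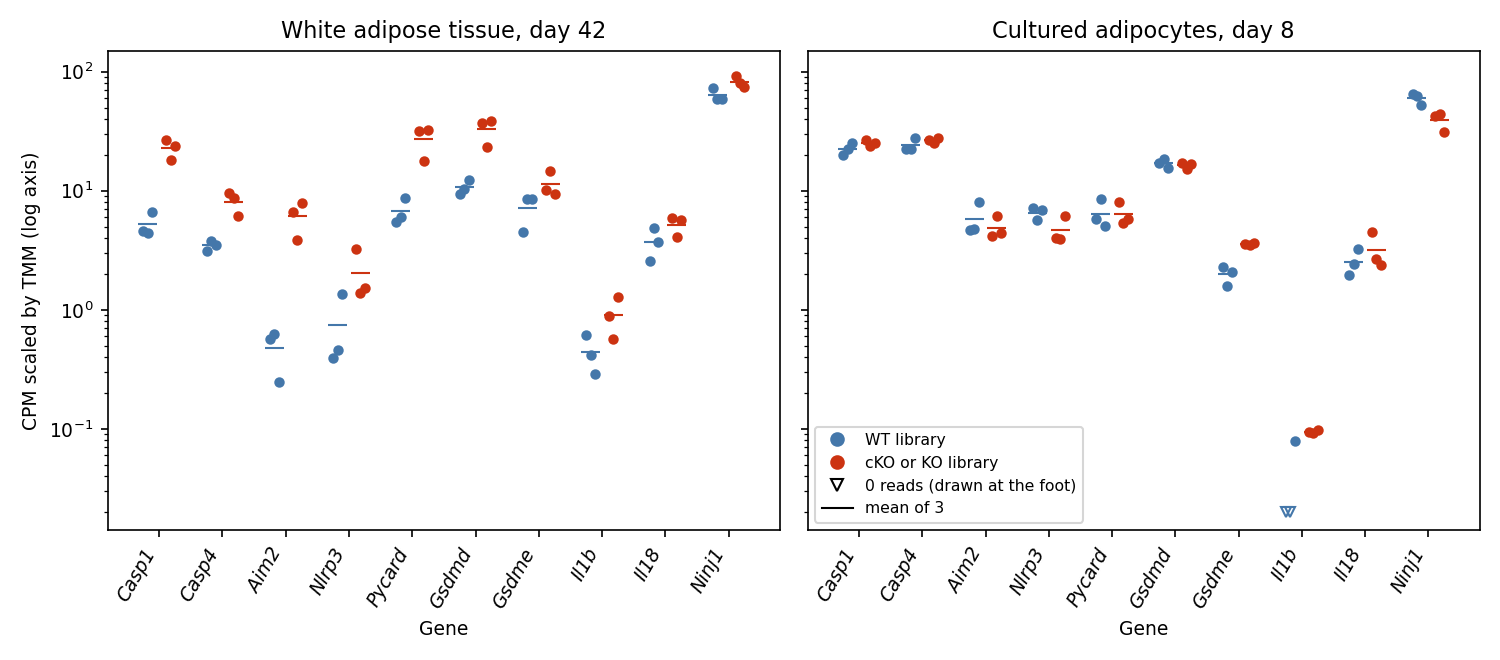
Level of each member in every library, as CPM scaled by TMM on a log axis, for WAT at day 42 (left) and cultured adipocytes at day 8 (right). Points are libraries, short lines are means of 3, and open triangles mark 0 reads. In WAT the cKO points of Aim2, Casp1, Pycard, Gsdmd and Casp4 lie wholly above the WT points, and in culture only Gsdme and Ninj1 of the tested members have separate groups.

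Among the sensors, Aim2, which binds cytosolic double-stranded DNA, was at 0.566, 0.626 and 0.248 CPM in the WT libraries, and 6.60, 3.86 and 7.95 CPM in the cKO libraries. Every cKO library was far above the highest WT library, and cKO replicate 2 was the lowest of its group. The log2 fold change of Aim2 was 3.67 (SE 0.47, adjusted p = 0.00118), the largest of the 10 members under TMM scaling. Its WT level rests on 13, 15 and 6 reads, so the size of the log2 fold change is uncertain. With a trend on transcript length and GC content removed, it was 3.04. Aim2 overlaps Cadm3, a cell adhesion gene on the other strand, and without a stated strand setting their reads cannot be told apart. Cadm3 rose in the same libraries from 16.6 ± 3.50 to 25.2 ± 3.18 CPM (SD, n = 3, log2 fold change 0.60 by edgeR, adjusted p = 0.0305).

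Nlrp3, a sensor of potassium efflux and other signs of damage, was low in WT WAT, at 0.392, 0.459 and 1.36 CPM, with 3.21, 1.38 and 1.52 CPM in cKO. The groups nearly met, since WT replicate 3 reached almost the level of the lowest cKO library. A log2 fold change of 1.46 (SE 0.62) did not pass (adjusted p = 0.0843). Without WT replicate 3 it was 2.25 and passed (adjusted p = 0.0290), and without cKO replicate 1 it was 0.94 (adjusted p = 0.302).

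Pycard encodes ASC, the adaptor that joins sensors to caspase-1. Its level was 5.44, 5.97 and 8.68 CPM in WT and 31.8, 17.9 and 32.3 CPM in cKO. The lowest cKO library, replicate 2, was still well above the highest WT library. Its log2 fold change was 2.03 (SE 0.29, adjusted p = 0.00169).

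Casp1, the protease that matures IL-1β and IL-18, stood at 4.62, 4.42 and 6.61 CPM in WT against 26.8, 18.2 and 23.8 CPM in cKO, with no overlap. That is a log2 fold change of 2.13 (SE 0.24, adjusted p = 0.000807), the smallest adjusted p among the members. Casp4, which senses cytosolic lipopolysaccharide directly and lies next to Casp1 on chromosome 9, measured 3.14, 3.76 and 3.51 CPM in WT against 9.57, 8.65 and 6.14 CPM in cKO. Here cKO replicate 3, not replicate 2, was the lowest of its group, and all cKO values lay above all WT values. Casp4 rose by less, with a log2 fold change of 1.23 (SE 0.25, adjusted p = 0.00579). On GRCm38, Casp1 spans 9:5298517-5307281 and Casp4 spans 9:5308849-5336791, both on the plus strand.

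Gsdmd, the pore-former cut by both caspases, lay at 9.45, 10.3 and 12.4 CPM in WT against 36.9, 23.2 and 38.2 CPM in cKO, again with cKO replicate 2 the lowest of its group and no overlap. On the log2 scale Gsdmd rose by 1.61 (SE 0.23, adjusted p = 0.00152). Gsdme, a gasdermin that links apoptotic signalling to lysis, lay at 4.53, 8.60 and 8.51 CPM in WT against 10.1, 14.6 and 9.45 CPM in cKO. The groups did not overlap but nearly met, and the order of the cKO libraries was the opposite of that of Gsdmd, with replicate 2 the highest. The log2 fold change of Gsdme, 0.66 (SE 0.31), did not pass (adjusted p = 0.108, 95% interval -0.06 to 1.38). Gsdme overlaps the scaffold gene Mpp6 on the other strand, which rose in WAT (log2 fold change 1.40, adjusted p = 0.00622), and their reads cannot be told apart without a stated strand setting.

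Ninj1, needed for rupture of the membrane after pore formation, lay at 72.4, 58.7 and 59.4 CPM in WT and 91.6, 81.0 and 74.1 CPM in cKO. The groups just failed to overlap. A log2 fold change of 0.37 (SE 0.14) did not pass (adjusted p = 0.0595). It passed with WT replicate 1 left out (0.47, adjusted p = 0.0439) and after removal of the trend on length and GC content (0.82, adjusted p = 0.00352). Neither cytokine gene passed. Il1b had 14, 10 and 7 reads in WT and 37, 23 and 56 in cKO, or 0.610, 0.417 and 0.289 CPM against 0.881, 0.565 and 1.27 CPM, and the groups overlapped. Its log2 fold change was 1.04 (SE 0.52, adjusted p = 0.128). Il18 was at 2.57, 4.88 and 3.72 CPM in WT and 5.90, 4.05 and 5.64 CPM in cKO, overlapping as well, with a log2 fold change of 0.48 (SE 0.32, adjusted p = 0.235). Il1b overlaps the antisense gene Il1bos, and Il18 overlaps Bco2 and Tex12.

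**Figure D2:**
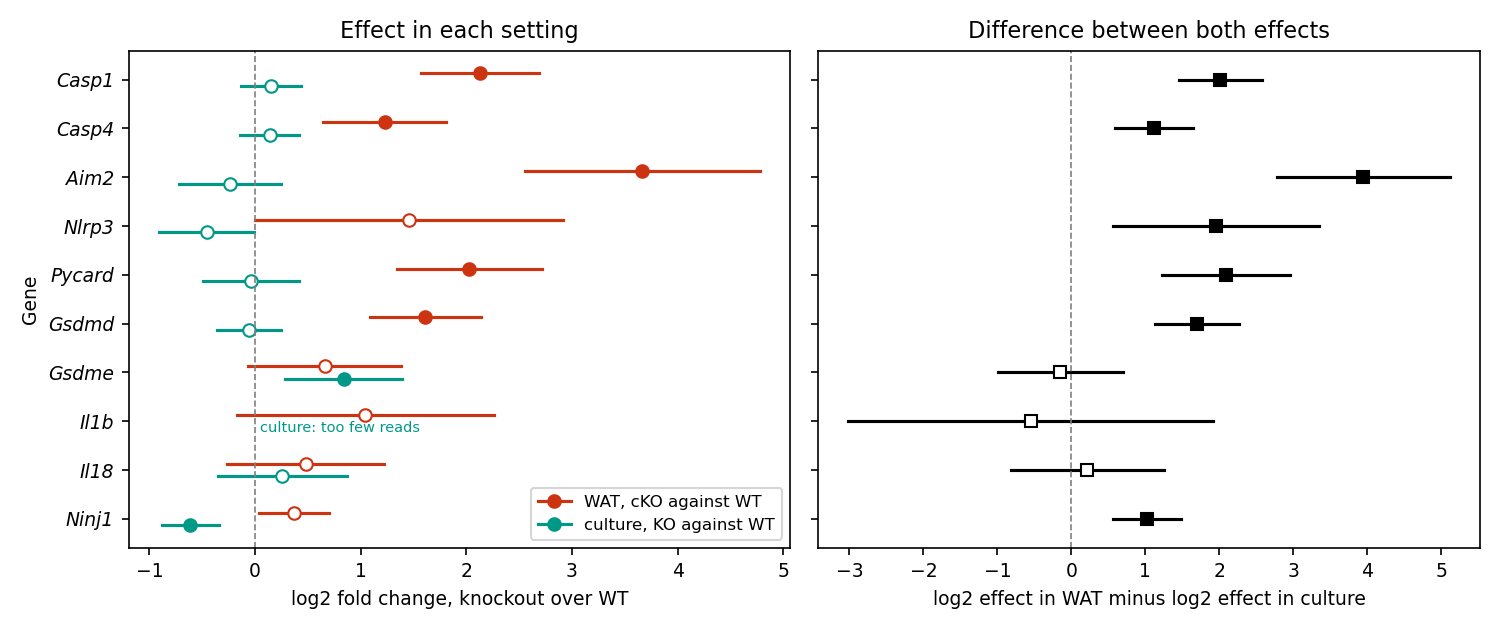
Left, log2 fold change of knockout over WT with its 95% interval for each member in WAT and in culture. Right, the difference of the WAT and culture effects with its 95% interval. Filled symbols passed at adjusted p under 0.05 and open symbols did not. The 5 filled WAT members reach from 1.23 to 3.67, and the culture effects lie between -0.61 and 0.84.

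Cell type markers moved in the same WAT libraries, and in bulk RNA fewer cells of a type and less RNA per cell cannot be told apart. Of 12 macrophage markers 11 rose, and their summed level was 538, 497 and 764 CPM in WT and 4139, 2163 and 4512 CPM in cKO. Lyz2, the lysozyme of macrophages, had a log2 fold change of 2.69 and C1qa, a complement subunit, 1.62, and no marker of the list was at 0 in all libraries. cKO replicate 2 had the lowest macrophage sum of its group, as it had the lowest Casp1, Aim2, Nlrp3, Pycard, Gsdmd, Il1b and Il18. Casp4, Gsdme and Ninj1 were instead lowest in cKO replicate 3, and Gsdme was highest in cKO replicate 2. Of 10 mature adipocyte markers 9 fell, with sums of 55728 to 59582 CPM in WT and 10279, 18318 and 7284 CPM in cKO. Of 8 preadipocyte and fibroblast markers 6 rose, from 779 to 917 CPM in WT to 1690 to 2377 CPM in cKO. The other lists moved less evenly: 2 of 4 tested neutrophil, 3 of 7 dendritic cell and 4 of 5 tested mast cell markers rose, 0 of 9 tested lymphocyte markers passed, 5 of 7 endothelial markers fell and 1 rose, 1 of 5 tested epithelial markers fell and 1 of 6 muscle markers rose. With library size only, 6 dendritic cell and 1 lymphocyte markers rose, 1 endothelial marker fell and 1 rose, and 1 epithelial marker rose and 0 fell. The part of these markers in the members' change was not tested.

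The members were also set against the macrophage sum of the same library. Per 1000 CPM of that sum, Casp1 was at 8.58 to 8.89 CPM in WT and 5.28 to 8.39 CPM in cKO, and Il18 at 4.77 to 9.82 and 1.25 to 1.87 CPM. Gsdmd was at 16.2 to 20.7 CPM in WT and 8.46 to 10.7 CPM in cKO. Only Aim2 of the 10 members was higher in every cKO library than in every WT library on this scale, at 1.59 to 1.78 CPM against 0.325 to 1.26 CPM. Casp1, Casp4, Pycard, Gsdmd, Gsdme, Il1b, Il18 and Ninj1 were lower in every cKO library than in every WT library, and Nlrp3 overlapped. These ratios are a description, and Lyz2 makes up much of the sum. With Lyz2 left out of it the Casp1 groups overlapped, at 15.1 to 18.2 CPM in WT and 11.0 to 17.1 CPM in cKO. The Aim2 groups stayed separate without Lyz2, at 0.684 to 2.51 CPM in WT and 3.46 to 3.67 CPM in cKO.

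**Figure D3:**
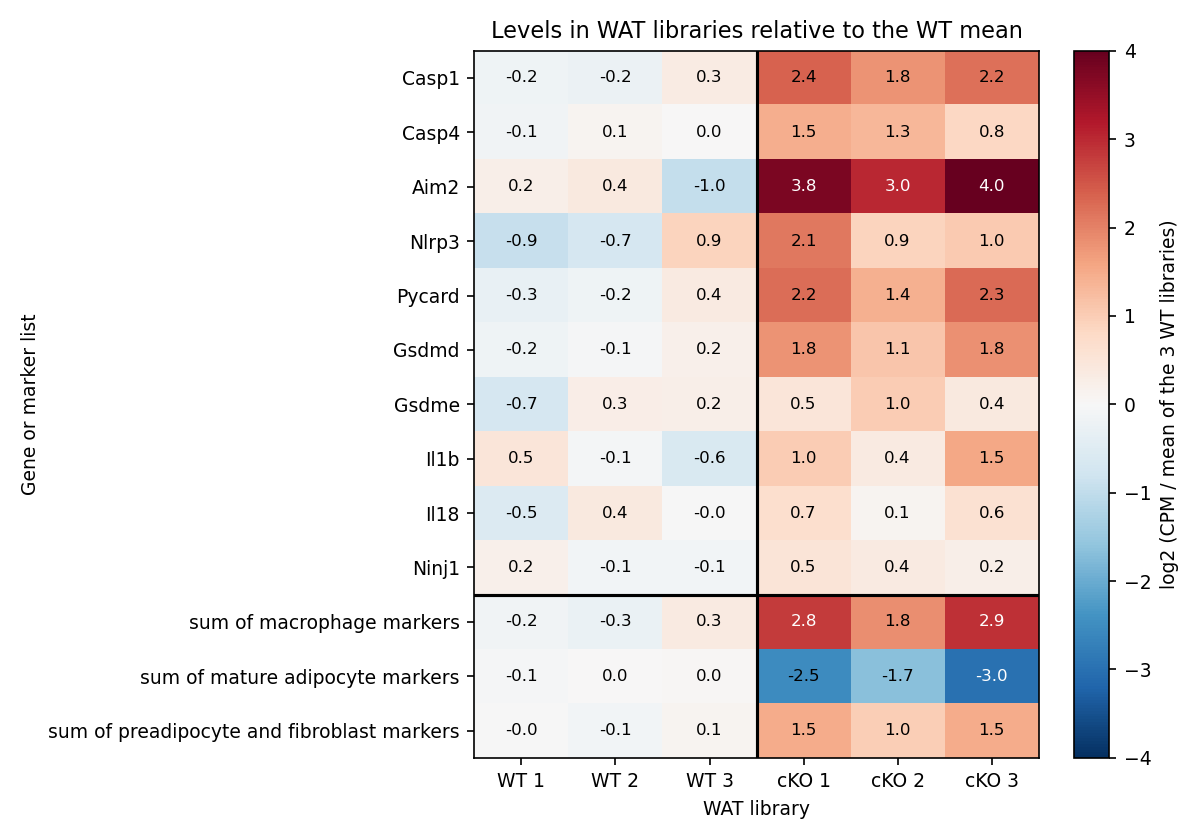
Level of each member and of 3 summed marker lists in the 6 WAT libraries, as log2 of CPM over the mean of the 3 WT libraries (colour and printed value). Aim2 stands 3.0 to 4.0 above the WT mean in the cKO libraries, the macrophage sum 1.8 to 2.9 above, and the mature adipocyte sum 1.7 to 3.0 below.

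In cultured adipocytes the pattern was different: of 9 members tested Gsdme rose and Ninj1 fell, against 8.94% of all genes that rose and 10.6% that fell. The groups were separate for 1 tested member in each direction, against 18% of all genes above and 18.8% below. Il1b had too few reads to be tested. The median log2 fold change was -0.04 over the members and -0.02 over all genes. Both changes lay outside the group that rose in WAT, and none of the sensors, the adaptor, the caspases or Gsdmd passed.

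Gsdme lay at 2.28, 1.60 and 2.06 CPM in WT cultures against 3.56, 3.48 and 3.60 CPM in KO cultures, from 27, 19 and 26 reads against 38, 75 and 74. The groups were separate and the KO libraries were nearly identical in level. The rise on the log2 scale was 0.84 (SE 0.27, adjusted p = 0.0304). Leaving out WT replicate 2 (adjusted p = 0.139) or KO replicate 1, 2 or 3 (adjusted p = 0.0589, 0.0772 and 0.0702) ended the call. Mpp6, on the opposite strand of the same locus, rose too (log2 fold change 0.39, adjusted p = 0.0256), from 35.9 ± 2.83 to 47.1 ± 3.82 CPM (SD, n = 3 libraries).

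Ninj1 lay at 64.5, 62.3 and 52.0 CPM in WT cultures against 42.2, 43.9 and 31.2 CPM in KO cultures, without overlap, so that its order was the reverse of that in WAT. It fell by 0.61 on the log2 scale (SE 0.13, adjusted p = 0.00277), and the call stood with any single culture library left out. In 1 fit over all 4 groups, which shares its spread with WAT, neither Ninj1 (adjusted p = 0.0723) nor Gsdme (0.143) passed.

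The members that rose in WAT showed no change past the threshold in culture. The intervals given here are for TMM scaling and cover the spread between libraries only. With the length and GC trend removed, Casp1 and Casp4 changed sign and lay below their intervals, without passing. Casp1 lay at 20.0, 22.4 and 25.3 CPM in WT against 26.6, 23.9 and 25.0 CPM in KO cultures, and the groups overlapped (log2 fold change 0.15, 95% interval -0.13 to 0.43, adjusted p = 0.457). Casp4 was at 22.2, 22.3 and 27.6 against 26.8, 25.0 and 27.5 CPM (0.14, interval -0.14 to 0.42, adjusted p = 0.504). Gsdmd was at 17.1, 18.3 and 15.5 against 17.3, 15.1 and 16.7 CPM (-0.06, interval -0.36 to 0.24, adjusted p = 0.823). For these 3 genes the upper bound of the culture effect lies below the lower bound of the WAT effect. The same holds for Pycard (0.42 in culture against 1.34 in WAT) and Aim2 (0.25 against 2.55). Pycard was at 5.74, 8.49 and 5.07 against 7.97, 5.39 and 5.75 CPM (-0.04, interval -0.50 to 0.42, adjusted p = 0.919), and Aim2 at 4.65, 4.79 and 8.00 against 4.13, 6.08 and 4.43 CPM (-0.24, interval -0.72 to 0.25, adjusted p = 0.514). For both genes the WT and KO culture libraries overlapped widely. Cadm3, which overlaps Aim2, fell in culture (log2 fold change -0.84, adjusted p = 0.0322).

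Nlrp3 lay at 7.10, 5.63 and 6.89 CPM in WT against 4.03, 3.90 and 6.19 CPM in KO cultures, with KO replicate 3 inside the WT range. Its log2 fold change of -0.46 did not pass (adjusted p = 0.143) and passed without KO replicate 3 (-0.72, adjusted p = 0.0399). Il18 was at 1.94, 2.44 and 3.25 against 4.50, 2.65 and 2.39 CPM, overlapping (0.26, adjusted p = 0.575). Il1b had 0, 0 and 1 reads in WT and 1, 2 and 2 in KO. The ratio of its reads per total, 3.32, has an exact 95% interval of 0.371 to 157 for counting error only, so the data set no useful bound on a difference.

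The cultures also held RNA of macrophage markers, at summed levels of 2582 to 2941 CPM in WT and 1781 to 2109 CPM in KO, and 5 of 11 tested macrophage markers fell and none rose, Lyz2 by 0.43 and Cd68 by 0.71 on the log2 scale. Mature adipocyte markers summed to 17397 to 18724 CPM in WT and 23612 to 28160 CPM in KO, with 5 of 9 tested higher. Of the tested markers of other cells, 2 of 7 fibroblast markers fell and 1 rose, 3 of 7 endothelial markers fell, 1 of 2 muscle markers rose, and none of the 1 neutrophil, 1 lymphocyte, 1 dendritic cell, 2 mast cell and 1 epithelial markers tested passed. The lymphocyte genes Cd3g, Cd8a, Ms4a1 and Ncr1 had 0 reads in every culture. Whether the macrophage markers contribute to the members' levels was not tested.

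The effects in WAT and in culture were compared in 1 model over the 12 libraries, since a gene that passes in one setting and not in the other is not thereby shown to differ. This model shares 1 spread between WAT and the less variable cultures, so its p-values can be too small for the WAT part. Past the threshold of adjusted p, the WAT effect was the more positive for 7 of 10 members and the more negative for 0, against 27.7% and 21.1% of all genes. The difference, as log2 effect in WAT minus log2 effect in culture, was 3.94 for Aim2 (adjusted p = 0.000101), 2.09 for Pycard (0.000951), 2.01 for Casp1 (6.76e-05) and 1.70 for Gsdmd (0.000226). It was 1.96 for Nlrp3 (0.0229), 1.12 for Casp4 (0.00233) and 1.02 for Ninj1 (0.00177), all adjusted p-values from edgeR. For Nlrp3 the call was lost without WAT WT replicate 1 or 2, WAT cKO replicate 1, culture WT replicate 1 or 3 or culture KO replicate 1 or 2, with adjusted p of 0.0517 to 0.0643. Gsdme (-0.15, adjusted p = 0.781), Il1b (-0.55, 0.733) and Il18 (0.22, 0.735) did not differ past the threshold, and their intervals are wide. Over all genes the median difference was 0.22, and over the members 1.41.

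Levels in the 4 groups followed different orders, each table being scaled on its own. Casp4 was highest in culture, at 26.5 ± 1.28 CPM in KO and 24.0 ± 3.07 in WT (SD, n = 3), which overlapped, followed by 8.12 ± 1.78 in cKO WAT and 3.47 ± 0.312 in WT WAT. Casp1 was similar in KO culture, cKO WAT and WT culture, at 25.2 ± 1.39, 22.9 ± 4.37 and 22.6 ± 2.63 CPM, each overlapping the next, and lowest in WT WAT at 5.22 ± 1.21. Aim2 and Nlrp3 were likewise lowest in WT WAT, at 0.480 ± 0.203 and 0.738 ± 0.543 CPM. Pycard was highest in cKO WAT, at 27.3 ± 8.14 CPM, and WT WAT, WT culture and KO culture overlapped in a row at 6.70 ± 1.74, 6.43 ± 1.81 and 6.37 ± 1.40. Gsdmd was also highest in cKO WAT, at 32.7 ± 8.32 CPM, and lowest in WT WAT, at 10.7 ± 1.49. Gsdme, in contrast, was lower in both cultures, at 1.98 ± 0.349 and 3.55 ± 0.0616 CPM, than in WT WAT, at 7.21 ± 2.32. Per length of transcript, Ninj1 was the most abundant member in WT WAT, at 53.5 CPM per kb, followed by Gsdmd at 5.97, Il18 at 4.33, Casp1 at 3.49, Gsdme at 2.88 and Casp4 at 2.42. Il1b at 0.324, Nlrp3 at 0.184 and Aim2 at 0.169 CPM per kb were the least abundant. Pycard is left out because the transcript length available for it exceeds the length of its annotated gene.

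**Figure D4:**
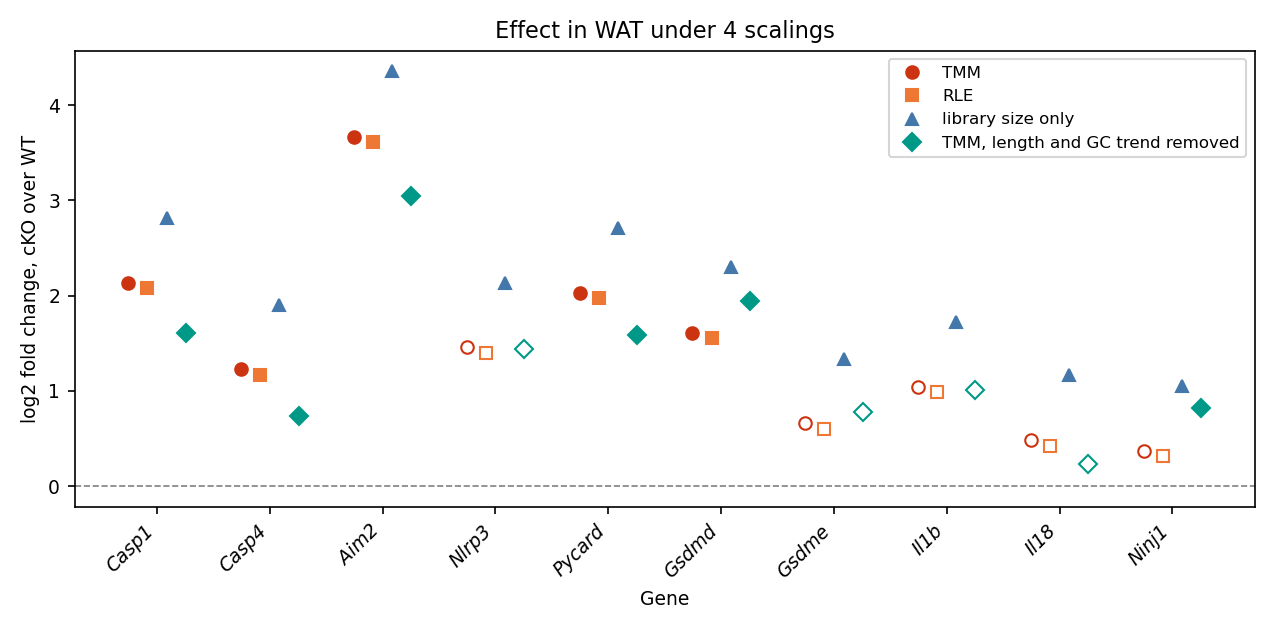
Log2 fold change of each member in WAT, cKO over WT, under TMM, RLE and library size only scaling and with a trend on transcript length and GC content removed. Filled symbols passed at adjusted p under 0.05. All members lie above 0 under each scaling. Those called under every scaling are Aim2, Casp1, Pycard, Gsdmd and Casp4, and all 10 passed under library size only.

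Genes around the core were then read from 4 lists, 46 of 61 genes being tested in WAT and 40 in culture. In WAT 27 rose and 6 fell, beside 28.2% and 24.2% of all genes tested. Scaling by library size alone gave 35 higher and 2 lower. The median log2 fold change over the lists was 1.01. The lists contain close paralogs such as the Naip, Gbp and Trim30 genes, whose reads the counting may have split in an unknown way.

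Sensors and co-factors had 13 of 17 tested genes higher and 1 lower in WAT. Naip5, Naip6 and Naip2, receptors for bacterial flagellin or secretion proteins, rose by 3.61, 3.89 and 2.90 on the log2 scale, Naip5 from 0.950 ± 0.333 to 11.7 ± 3.25 CPM (SD, n = 3). Naip6 was at 0.566, 0.167 and 0.413 CPM in the WT libraries, which is few reads, so the size of its change is uncertain. Txnip, a thioredoxin-binding protein that can engage NLRP3 and that responds to glucose, fell from 3032 ± 333 to 1153 ± 107 CPM (SD, n = 3; log2 fold change -1.39 by edgeR, adjusted p = 0.00137, and -0.71 with library size only, adjusted p = 0.0101). In culture 0 of 13 rose and 3 fell. P2rx7, the ATP-gated channel that triggers NLRP3, fell from 14.1 ± 3.59 to 6.30 ± 0.575 CPM (SD, n = 3; log2 fold change -1.15, adjusted p = 0.000296), and Zbp1, a sensor of Z-form nucleic acids, fell by 0.81 (adjusted p = 0.0109). Nlrc4, the partner of the NAIPs, was the remaining one (-1.08, adjusted p = 0.0110), and was singled out after its values were seen.

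Among the other caspases and gasdermins 0 of 4 tested rose in WAT, and 2 with library size only. Casp12, a caspase of the inflammatory subfamily, had a log2 fold change of 0.60 (adjusted p = 0.0700) and Casp8 one of 0.43 (0.103). In culture none of 4 passed: Casp12 was at 0.27 (adjusted p = 0.170).

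Genes of IL-1 and IL-18 signalling had 10 of 16 higher and 2 lower in WAT. Il1rn, the secreted antagonist of the IL-1 receptor, lay at 1.66, 2.46 and 2.89 CPM in WT against 115, 46.2 and 106 CPM in cKO, far apart (log2 fold change 5.25, SE 0.42, adjusted p = 0.000486), while Il1b itself stayed below 1.3 CPM in every WAT library. Il1rl1, the receptor of IL-33, rose by 3.30 and Il1r1, the IL-1 receptor, by 1.43 on the log2 scale. Il18bp, which binds and neutralises IL-18, fell from 22.6 ± 2.42 to 8.99 ± 0.949 CPM (SD, n = 3; log2 fold change -1.33, adjusted p = 0.000968, and -0.65 with library size only, adjusted p = 0.0103). In culture 1 of 14 fell, Il1a, an IL-1 cytokine (3.50 ± 0.399 to 1.69 ± 0.510 CPM, SD, n = 3, edgeR adjusted p = 0.0160), and Il1rl1 had -0.38 (adjusted p = 0.0553).

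The list of inhibitors and of proteins that repair or divert death signals had 4 of 9 higher and 2 lower in WAT. Trim30a, a negative regulator of inflammatory signalling in mice, rose by 2.70, Ripk3, the kinase of necroptosis rather than an inhibitor, by 1.65 and Serpinb1a, an inhibitor of serine proteases, by 1.75. Vps4a, the ATPase of the ESCRT membrane repair machinery, fell by 0.64 on the log2 scale under TMM but was at 0.044 (adjusted p = 0.728) with library size only, where the list had 7 higher and 0 lower. In culture none of 9 passed, with Trim30a at -0.42 (adjusted p = 0.113) and the ESCRT subunit Chmp4b at -0.23 (0.133). Over the 4 lists in culture 0 of 40 rose and 4 fell, beside 8.94% and 10.6% of all genes, with 1 call left without WT replicate 2 and 2 without KO replicate 2.

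**Figure D5:**
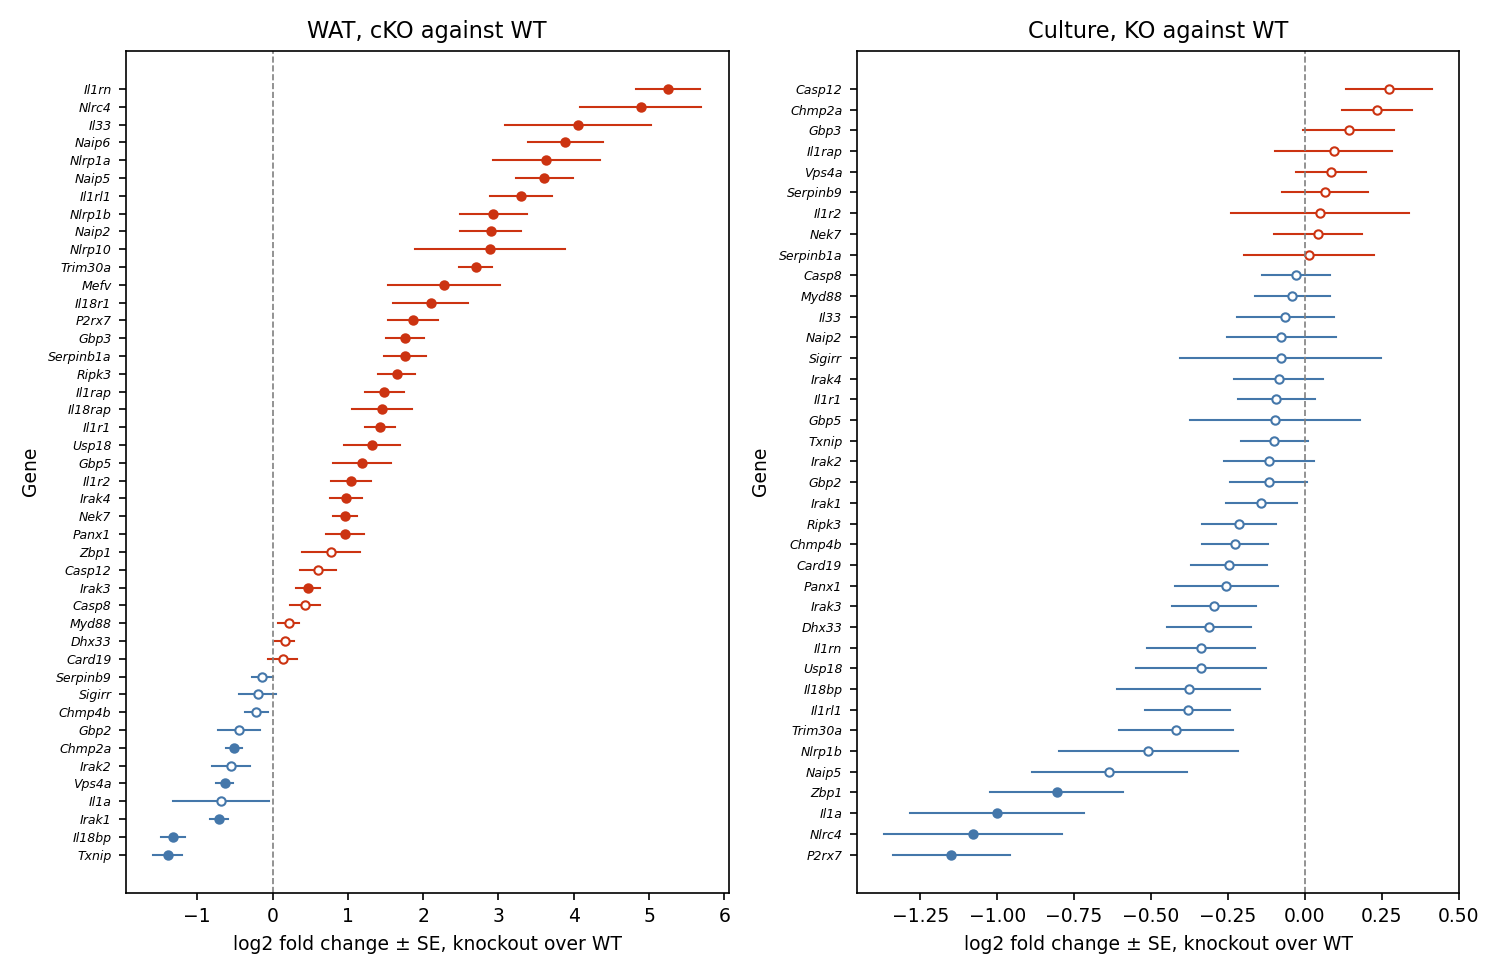
Log2 fold change ± SE of tested genes of the 4 surrounding lists, leaving out those not reported here, in WAT (left) and culture (right), ordered by size. Filled points passed at adjusted p under 0.05. In WAT 27 filled points lie above 0 and 5 below, with Il1rn the farthest at 5.25, and in culture 4 lie below 0 and none above.

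Among the genes whose profile over the 6 WAT libraries was closest to Casp1, by the root mean square difference of centred log2(CPM + 1) among 10746 candidates, were Entpd1 (0.0710), an ectonucleotidase, Fnip2 (0.0871), Mfhas1 (0.127) and Hdgfl3 (0.132). Closest to Gsdme were Pi16 (0.0656), Cfap36 (0.126), Pgm5 (0.130), Klhl24 (0.136) and Nrip2 (0.145). Pi16 is one of the listed fibroblast markers and none of the other genes named here is a listed macrophage marker. The search also matches the size of the change, and the median log2 fold change of the macrophage list was 2.91, against 2.13 for Casp1. It therefore cannot show whether Casp1 goes with those markers.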

How the data were processed

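Per the labels' protocols, TRIzol RNA went into MGIEasy mRNA libraries. Per gene, the authors deposited raw counts, in 1 table for WAT and 1 for culture. Build GRCm38 and the tools HISAT2 2.1.0, cutadapt 1.11 and FastQC 0.11.2 are listed in the submitters' processing notes. How reads were counted, with which annotation and strand setting, is not given in the sources used here.

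WAT and culture were fitted separately in R 4.3.3 by edgeR 4.0.16 (quasi-likelihood test, TMM scaling, filterByExpr at 10 counts), with Benjamini-Hochberg adjustment over all genes tested and a threshold of 0.05. The interaction used all 12 libraries and 14463 genes listed in both tables. The biological coefficient of variation was 0.319 for WAT libraries and 0.114 for cultures. The SE of a log2 fold change is its size over the square root of F, and intervals use the t quantile at the fit's degrees of freedom. Counting intervals and floors cover counting error only. No pair of libraries within a group agreed within sampling noise, so none was treated as a repeat reading of another. This does not show that they came from separate animals or cultures.

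Alternatives were RLE factors, library size only, no count filter, DESeq2 1.42.0, limma voom 3.58.1, a block for replicate number, leaving out each library, 1 fit over the 4 groups, and removal of a trend on transcript length and GC content, known for 85.8% of the WAT genes and 98.0% of the culture genes. Simulated data with known changes in 200 genes were used to check the tests. Of 1.5-fold, 2-fold and 4-fold changes, 2.99%, 10.4% and 63.6% were recovered in WAT and 52.2%, 89.6% and 98.5% in culture. The interaction recovered 1.49%, 20.9% and 72.7%. In the real data far more genes passed, 52.4% in WAT, 19.5% in culture and 48.8% in the interaction. The adjustment is stricter where few genes change, so these recovery rates may be too low for the real tests. Unchanged genes made up 7.27% of calls in WAT, 7.51% in culture and 10% in the interaction. Not passing in WAT does not show that a gene is unchanged. Lengths came from GENCODE, positions and promoters from RefSeq.

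The members and lists were chosen with earlier results of these data known. Named were all members, the 4 genes of each pathway list with the smallest p in WAT and the 2 with the smallest in culture, the 2 most abundant genes of each marker list (those of the macrophage list are printed, the other lists as counts and sums), and the 5 genes most like Casp1 and Gsdme with a mean of at least 5 CPM. Some genes that this rule takes are left out of the text and plots.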

Additional observations from a re-analysis of the deposited data

Results flagged for a closer look

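For 7 members the effect of the knockout differed between WAT and culture by a test of the difference itself, the interaction over 12 libraries in edgeR. The log2 effect in WAT minus that in culture was 3.94 for Aim2, 2.09 for Pycard, 2.01 for Casp1, 1.96 for Nlrp3, 1.70 for Gsdmd, 1.12 for Casp4 and 1.02 for Ninj1. The model shares 1 spread between WAT and the less variable cultures, so its p-values can be too small for the WAT part. The Nlrp3 call held in 5 of 12 fits with 1 library left out. Ninj1 had opposite signs: its log2 fold change was 0.37 in WAT (adjusted p = 0.0595) and -0.61 in culture (adjusted p = 0.00277). WAT and culture differ in age, in cell composition and in sequencing depth as well as in setting, and these cannot be told apart.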

How the results depend on the processing

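The 5 calls in WAT, Aim2, Casp1, Pycard, Gsdmd and Casp4, were kept under every alternative run. For Pycard the removal of the length and GC trend used the transcript length that exceeds its annotated gene. The count of WAT members called was 10 with library size only, 8 in 1 fit over the 4 groups and 5 to 6 with 1 library left out. In culture the count of 2 became 0 in 1 fit over the 4 groups and 1 to 2 with 1 library left out. That fit shares 1 spread between WAT and the less variable cultures. Pathway calls in culture, 4 in the main analysis, became 0 in it and 1 to 5 with 1 library left out. Pathway calls in WAT ranged from 25 to 32 with 1 library left out, against 33. Interaction calls ranged from 6 to 7, against 7. Same-numbered libraries did not deviate together in every pair (correlations of -0.35, 0.02 and -0.21 in WAT and 0.24, 0.05 and 0.29 in culture), and not every library correlated best with its own number. With the replicate number as a block the counts of members called were 5 in WAT, 2 in culture and 7 in the interaction, and of pathway genes 30 in WAT and 10 in culture. Log2 fold changes in culture that changed sign, none of them past the threshold, were those of Casp1 (-0.25), Casp4 (-0.25) and Il18 (-0.16) with the length and GC trend removed, Aim2 (0.077, range with 1 library left out -0.44 to 0.077) without WT replicate 3, Pycard (0.23, 0.073 and 0.025) without WT replicate 2, KO replicate 2 or KO replicate 3, Gsdmd (range -0.11 to 0.017) without WT replicate 2, and Il18 (range -0.017 to 0.48) without KO replicate 1. In the interaction Gsdme (0.50) and Il1b (0.10) changed sign with library size only, and Il18 (range -0.0071 to 0.53) without culture WT replicate 3. The cause of these changes was not tested. Depth limits Il1b, with 0 to 2 reads per culture library, Gsdme in culture, with 19 to 75, and Aim2 in WT WAT, with 6 to 15.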

Other observations

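Among the pathway genes P2rx7 moved in opposite directions in the tissue and in culture. It rose in WAT, from 12.1, 7.72 and 11.6 CPM in WT to 44.1, 21.3 and 48.9 CPM in cKO (log2 fold change 1.86, adjusted p = 0.00374), and fell in culture, and the interaction was 3.05 (edgeR, adjusted p = 0.000102). Nlrc4 was at 0.131, 0 and 0.0827 CPM in WT WAT and at 2.33, 1.30 and 2.97 CPM in cKO WAT, and at 2.87, 4.03 and 4.28 against 1.41, 1.44 and 2.34 CPM in culture. The WT WAT levels rest on reads at or near 0, so no size is given for its change there. Both were singled out after their values were seen. P2rx7 and Nlrc4 are lower in KO cultures, where 5 of 11 tested macrophage markers fell and the others did not pass. They are higher in cKO WAT, where 11 of 12 macrophage markers rose. The part of those markers was not tested.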
